A study of Apis cerana with 9 samples.

Results

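The proboscis transcriptome of Apis cerana bees that carried rapeseed pollen was compared with that of bees that carried pear pollen. The series held 9 RNA-seq libraries of the proboscis, and the 6 libraries of these 2 groups were used, 3 in the rapeseed group and 3 in the pear group. The remaining 3 libraries, from bees that the labels describe only as carrying no pollen (non-pollen), are given as side values. Of the 12757 genes in the deposited table, 418 had no count in any of the 6 libraries, and the 9083 that reached an FPKM of 1 in 3 or more of them were tested. FPKM is the authors' fragment count scaled by gene length and library size. The question was which functions, as named in the description, GO and KEGG columns of the table, set the carriers of the 2 pollens apart.

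Each group was defined by the pollen that the bees carried. The labels gave no genotype, age, colony, collection day or sequencing batch. Nothing in them tells separate bees, pools or colonies apart within a group, so the p-values below cover the spread among these libraries alone, and that spread may be technical. The flower cannot be told apart from anything else that differed between the days, places or bees sampled. In bulk tissue, fewer cells of a type and less RNA per cell cannot be told apart either.

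The proboscis is the sucking mouthpart of the bee. It holds muscle, nerve and taste hairs inside a hard cuticle, and nectar and pollen pass over it together with microbes and plant compounds. Insects meet microbes with short antimicrobial peptides that are switched on through the Toll and Imd pathways, and they handle plant compounds with cytochrome P450 enzymes, transferases and transporters. Small heat shock proteins hold damaged proteins in a soluble state until larger chaperones refold them. Royal jelly proteins and alpha-glucosidase are products of the head glands of worker bees.

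Total counts were between 45447582 and 46167296 in the pear libraries and between 49085060 and 53518340 in the rapeseed libraries. The mouthpart genes proboscipedia (LOC108000244), Sex combs reduced (LOC108000243) and Deformed (LOC108000493) all passed the filter. Deformed was called higher in rapeseed (FPKM 62.1 to 70.1 in pear and 73.1 to 76.6 in rapeseed). The other two were not called, with an FPKM of 62.3 to 64.8 in pear and 65.9 to 68.1 in rapeseed for proboscipedia, and of 25.6 to 27.9 in pear and 21.6 to 23.6 in rapeseed for Sex combs reduced. So the mouthpart genes did not all lie on the same side. None of the 5 Hox genes of the thorax and abdomen passed the filter, and abdominal-A (LOC108000309) had no count in the 6 libraries. Of 25 tested neuron markers 1 was higher in rapeseed (4.0%) and none was lower, and of 11 photoreceptor markers none was higher or lower. Over all genes tested 8.88% were higher and 6.78% lower. Both lists were matched on descriptions. The neuron list thus also holds extended synaptotagmin-2 (LOC107997916) and synaptobrevin homolog YKT6 (LOC108002902), and its counts may not be of neurons alone.

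Rapeseed and pear pollen carriers differed in many genes, mostly by little. edgeR's quasi-likelihood method gave the p-values, and a gene was called when its p after Benjamini-Hochberg adjustment over all genes was under 0.05. SE is the standard error of a log2 fold change, which is positive where rapeseed was higher. Of the 9083 genes, 1423 were called (15.7%), with 807 higher (8.88%) and 616 lower (6.78%) in rapeseed. The median size of a called change was 0.24 on the log2 scale, and 1259 of the called genes changed by less than 1.5-fold. Only 55 called genes reached a fold of 2, with 27 higher and 28 lower. Of these 55 genes, 16 had no description or were uncharacterized (6 higher and 10 lower), and 23 had a mean FPKM under 5 in both groups. The share of calls that were higher depended on the scaling. It was 56.7% with TMM scaling, 38.1% with library totals alone and 41.8% on the log2(FPKM + 0.1) scale. No called gene changed its sign under any alternative that was tried.

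**Figure D1:**
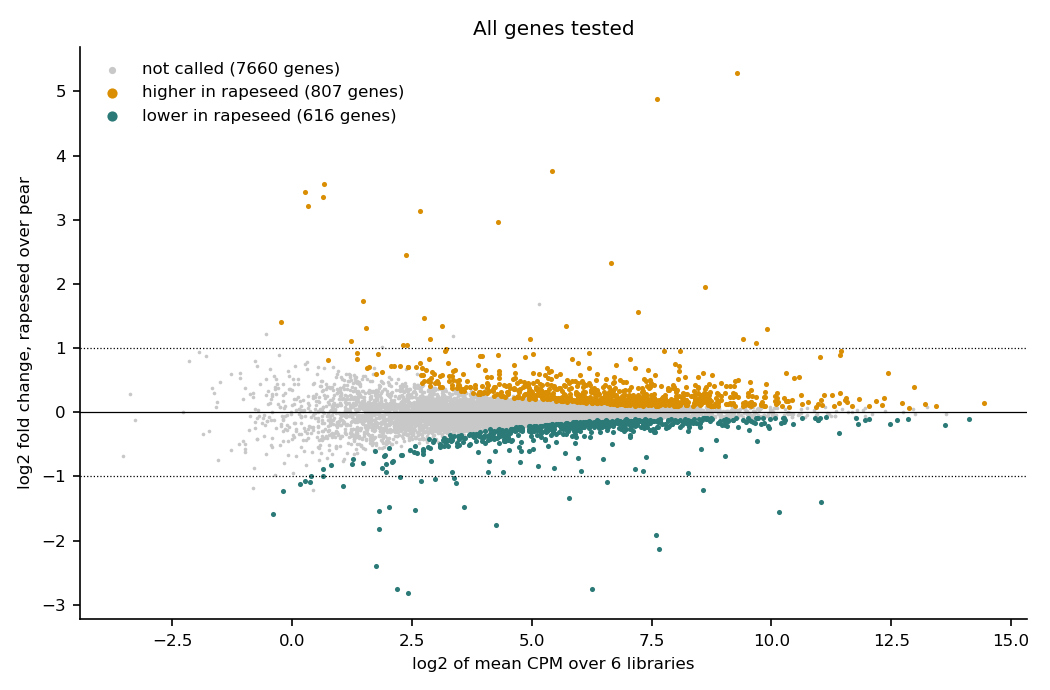
Log2 fold change of rapeseed over pear (vertical axis) against the log2 of the mean CPM over the 6 libraries (horizontal axis) for the 9083 genes tested; coloured points are the 807 genes called higher and the 616 called lower, and dotted lines mark a fold of 2. Most coloured points lie between the dotted lines, and laccase-5-like and venom serine protease 34-like lie above all other points.

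The widest difference was in an oxidative enzyme. Laccases are multicopper oxidases that oxidise phenols, and in insects members of the family take part in the tanning of cuticle. Laccase-5-like (LOC108001912, scaffold NW_016019641.1 from 676349 to 680283, plus strand) had a CPM (the count scaled by library size and TMM factor) of 33.4, 29.7 and 30.9 in pear against 1218, 1247 and 1199 in rapeseed. Every rapeseed library was far above every pear library. The log2 fold change was 5.29 (SE 0.040, edgeR adjusted p = 3.13e-31). Its FPKM in the non-pollen libraries was 75.04 ± 2.09 (SD, n = 3), between the pear value of 14.9 ± 1.08 and the rapeseed value of 567 ± 10.1. The other laccases did not follow it: the laccase-1-like genes LOC108001943 and LOC108000897 were lower in rapeseed, at -0.60 and -0.53 on the log2 scale. A gene described as Peroxidase (LOC108002461), chosen after its values were seen, was also lower, at -1.53, with a mean FPKM of 2.17 in pear and 0.727 in rapeseed. In the list of laccases, peroxidases and phenoloxidase genes, 6 of 15 tested members were higher and 3 were lower, with a median of 0.10 on the log2 scale against -0.01 over all genes. The list was also matched on the name protein yellow (LOC107999779 and LOC107999978), so its counts may not be of these enzymes alone. Without pear replicate 2 or rapeseed replicate 3 the number higher was 3, and on the FPKM scale it was 3 as well.

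A secreted protease came next. Venom serine protease 34-like (LOC107993933, scaffold NW_016018256.1 from 135911 to 138240, plus strand) had a CPM of 14.4, 12.9 and 11.4 in pear against 375, 374 and 394 in rapeseed. The groups were well apart, with a log2 fold change of 4.88 (SE 0.055, edgeR adjusted p = 1.2e-27). The name comes from the description column. Melittin (LOC108000807), the main venom peptide, had an FPKM of at most 1.45 in every library of the 6, and apamin (LOC107993904) had no count. Of 14 tested venom gland markers only this protease and hyaluronidase (LOC107998690) were higher (14.3%), and none was lower. The summed CPM of that marker list was 595 to 604 in pear and 969 to 991 in rapeseed, and without this protease it was 581 to 591 in pear and 594 to 599 in rapeseed, so this gene made up nearly all of the difference. Other digestive or clotting proteases changed little. Trypsin 3A1 (LOC107993560) was higher by 0.26, trypsin-like LOC108000782 by 0.31, and serine protease gd-like (LOC107994873) was lower, at -0.36. LOC108000782 overlaps a gene on the same strand and LOC107994873 overlaps a gene on the other strand. In all, 6 of 18 tested serine protease and serpin genes were higher (33.3%) and 1 was lower (5.56%), against 8.88% and 6.78% of all genes.

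Some fat-splitting enzymes were also higher, and 3 of them lie side by side. Lipases cut fatty acids from stored or eaten fat. Pancreatic triacylglycerol lipase-like (LOC108002367) had a CPM of 5.23, 6.56 and 5.95 in pear against 77.1, 82.2 and 80.1 in rapeseed. Its log2 fold change was 3.75 (SE 0.080, edgeR adjusted p = 1.15e-21). Its neighbours on scaffold NW_016019686.1 moved the same way: pancreatic lipase-related protein 3-like (LOC108002368) rose by 2.97 and lipase member H-A-like (LOC108002366) by 3.43. The last rested on few reads, with raw counts of 16, 0 and 12 in pear against 97, 103 and 133 in rapeseed. The 3 genes lie on the minus strand between positions 73354 and 86430 and may share reads, since the counting of reads that match several genes is not given in the sources used here. Phospholipase B1 (LOC107999468), which frees fatty acids from membrane lipids, had a CPM of 0.836, 1.74 and 1.31 in pear against 11.7, 11.4 and 11.0 in rapeseed. Its log2 fold change was 3.13 (SE 0.20), and the gene lies outside the lipase list counted next. In the lipase list 5 of 17 tested members were higher (29.4%), 1 was lower (5.88%) and 11 were not called. Its median was 0.08, and over all genes 8.88% were higher and 6.78% lower. The lower member was lipase 3-like (LOC107994148), at -0.27, a call lost without pear replicate 1 or rapeseed replicate 1 or 2. The non-pollen libraries had an FPKM of 27.2 ± 2.74 for LOC108002368 and 26.9 ± 1.06 for LOC107999468, so for these genes it was the pear group that stood lowest.

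**Figure D2:**
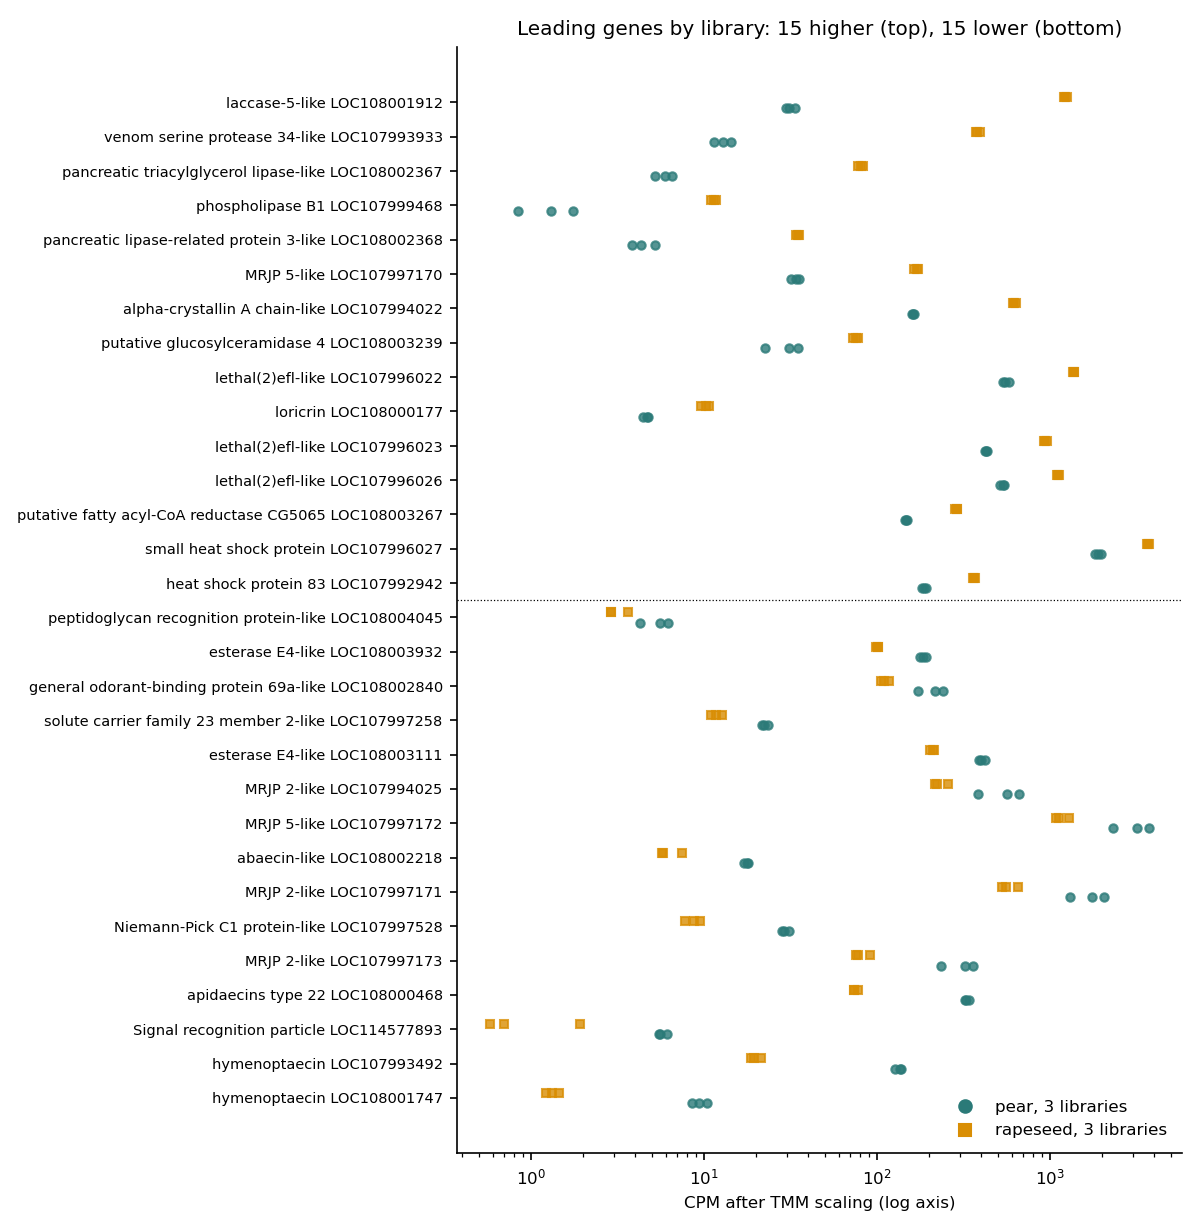
CPM after TMM scaling (log axis) in each of the 3 pear libraries (circles) and 3 rapeseed libraries (squares) for the 15 genes with the largest rise (top) and the 15 with the largest fall (bottom) among genes named by rule. In every row the circles and squares do not overlap; MRJP stands for major royal jelly protein.

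Genes that build fatty acids and wax-like hydrocarbons were more often higher than lower in rapeseed. In this pathway fatty acid synthase makes the chain, elongases lengthen it, desaturases add double bonds and reductases turn it into alcohols and aldehydes. Of 33 tested members 13 were higher (39.4%) and 2 were lower (6.06%), against 8.88% and 6.78% of all genes. The list median was 0.06. The fatty acyl-CoA reductase LOC108003267 had a CPM of 148, 145 and 147 in pear against 281, 288 and 288 in rapeseed, a log2 fold change of 0.96 (SE 0.033, edgeR adjusted p = 2.41e-17). A further reductase on the same scaffold, LOC108003266, rose by 0.72. The elongase LOC108000343, which overlaps another elongase gene on the other strand, rose by 0.75, and the acyl-CoA Delta(11) desaturase-like gene LOC108000092 by 0.92. Fatty acid synthase-like (LOC108000565), which overlaps genes on the same strand, went the other way. Its CPM was 647, 642 and 629 in pear against 406, 395 and 398 in rapeseed, a log2 fold change of -0.68 (SE 0.029). A pair of elongases, singled out after their values were seen, had the largest changes in the list. LOC107995792 rose by 3.56, from an FPKM of 0.136 in pear to 1.64 in rapeseed, and LOC108001947 rose by 3.36, from 0.275 to 2.84. In the non-pollen libraries they stood at 10.6 ± 0.621 and 16.6 ± 0.254. LOC107995792 lies wholly within another elongase gene on the same strand, so its reads cannot be assigned with certainty.

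Every small heat shock protein gene that passed the filter was higher in rapeseed. The list matched 13 tested genes and 8 of them rose (61.5%, against 8.88% of all genes). The 5 that did not pass the test were caught by the word lethal(2) in their description and are transporters, a cell polarity protein and others, not small heat shock proteins. Alpha-crystallin A chain-like (LOC107994022) had a CPM of 159.7, 162 and 161 in pear against 636, 606 and 620.4 in rapeseed. Its log2 fold change was 1.95 (SE 0.031, edgeR adjusted p = 4.45e-24), or 3.85-fold. The gene small heat shock protein (LOC107996027) had a CPM of 1814, 1886 and 1967 in pear against 3642, 3722 and 3670.3 in rapeseed, a log2 fold change of 0.96. It heads a run of 6 of these genes on scaffold NW_016019023.1 between positions 59443 and 74999. The 5 others in that run are described as lethal(2)essential for life-like and rose by 0.27 (LOC107996028), 0.86 (LOC107996025), 1.07 (LOC107996026), 1.14 (LOC107996023) and 1.30 (LOC107996022). Besides these and alpha-crystallin A there was 1 further member, LOC108003645 on scaffold NW_016017567.1, which rose by 0.61. Close copies in the run may share reads. All 13 tested genes of the list together took 0.638% ± 0.0057 of the counts in pear and 1.204% ± 0.0039 in rapeseed (SD, n = 3), and all 8 genes were called under every alternative run except the test against a fold of 1.5, which left 6.

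The larger chaperones followed in part. Of 48 tested members 10 were higher (20.8%) and 3 were lower (6.25%), against 8.88% and 6.78% of all genes. The list median was 0.00. Heat shock protein 83 (LOC107992942), an Hsp90 chaperone, had a CPM of 185, 191 and 182 in pear against 367, 356 and 362 in rapeseed, a log2 fold change of 0.96 (SE 0.032). Heat shock 70 kDa protein cognate 4-like (LOC107996313) rose by 0.89, heat shock protein 90 (LOC107999366) by 0.61 and dnaJ protein homolog 1 (LOC107996590), a helper of Hsp70, by 0.48. The 3 that were lower were hypoxia up-regulated protein 1 (LOC107993615; -0.14) and the DnaJ genes LOC108001498 (-0.15) and LOC108001060 (-0.21), and without rapeseed replicate 3 the number lower was 1. With library totals alone the list median was -0.04. The summed CPM of the list was 14522 to 14598 in pear and 19239 to 19468 in rapeseed.

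All 6 antimicrobial peptide genes were lower in rapeseed, with a median of -1.80 against -0.01 over all genes. Over all genes 6.78% were lower. The test against a fold of 1.5 left 4 of them. Hymenoptaecin (LOC107993492), a glycine-rich peptide of bees, had a CPM of 126, 136 and 137 in pear against 19.5, 21.2 and 18.6 in rapeseed. Its log2 fold change was -2.75 (SE 0.055, edgeR adjusted p = 3.17e-22), so that it was 6.73-fold higher in pear. A gene with the same description, LOC108001747, fell by 2.82, and its CPM was 8.49, 9.34 and 10.4 in pear against 1.32, 1.22 and 1.45 in rapeseed. Apidaecin (LOC108000468), a proline-rich peptide, had a CPM of 323, 328 and 340.1 in pear against 77.6, 73.9 and 73.9 in rapeseed, a log2 fold change of -2.14 (SE 0.037). Abaecin-like (LOC108002218), also proline-rich, changed by -1.47, defensin-2 (LOC108000415) by -1.15 and defensin-1 (LOC107993803) by -0.35. For every peptide the 3 rapeseed libraries were below the 3 pear libraries. LOC107993492 and LOC108000415 lie wholly within the span of a gene on the other strand, and whether counting used strand is not given in the sources used here.

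The non-pollen libraries did not place the peptides in one order. Hymenoptaecin LOC107993492 had an FPKM of 249 ± 7.96 there, above pear (176 ± 5.74) and rapeseed (25.5 ± 1.66). Apidaecin stood at 188 ± 6.78 in non-pollen, between 642 ± 7.35 in pear and 142 ± 4.46 in rapeseed. Defensin-1 stood at 2656 ± 55.9, far above 347 ± 11.4 in pear and 266 ± 5.78 in rapeseed. The non-pollen libraries carried 32.2% to 32.5% of their counts in royal jelly genes, which lowers the FPKM of all other genes there.

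Recognition and Toll or Imd pathway genes did not move together. Among 16 tested recognition and Toll or Imd pathway genes 3 were higher and 3 were lower, with a median of -0.02. Each count was 18.75% of the list, against 8.88% higher and 6.78% lower over all genes. The list was also matched on lysozyme, which is not a sensor, so its counts are not of sensors and pathway genes alone. Peptidoglycan-recognition protein SC2-like (LOC108004046), which binds bacterial cell wall, had a CPM of 59.1, 62.1 and 68.2 in pear against 38.8, 42.03 and 41.3 in rapeseed, a log2 fold change of -0.63 (SE 0.061). Its neighbour LOC108004045, peptidoglycan recognition protein-like, changed by -0.77 (adjusted p = 0.00607). Cactus (LOC107996104), the inhibitor of the Toll pathway's transcription factor, changed by -0.20. Beta-1,3-glucan-binding protein 1 (LOC107993481), a sensor of fungal wall, rose by 0.27 and Lysozyme c-1 (LOC114577830), which cuts bacterial wall, by 0.16. Without rapeseed replicate 2 the number higher was 1, as on the FPKM scale. Haemocyte markers were higher in 7 (33.3%, 5 of them class B scavenger receptors) and lower in 1 (4.76%) of 21, with a summed CPM of 1956 to 1996 in pear and 2200 to 2215 in rapeseed. Of these, 7 were thioesterases caught by part of their name, which do not mark haemocytes, and the 14 others were higher in 6 and lower in 1. Fat body markers were higher in 3 (33.3%) and lower in 2 (22.2%) of 9, with a summed CPM of 5658 to 6161 in pear and 5776 to 5807 in rapeseed. A kinase and a phosphatase of pyruvate dehydrogenase were caught there by part of their name, and the 7 members without them were higher in 2 and lower in 2. Vitellogenin (LOC108000069), the yolk protein made in the fat body, changed by -0.57. The part of either tissue in the peptide result was not tested.

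**Figure D3:**
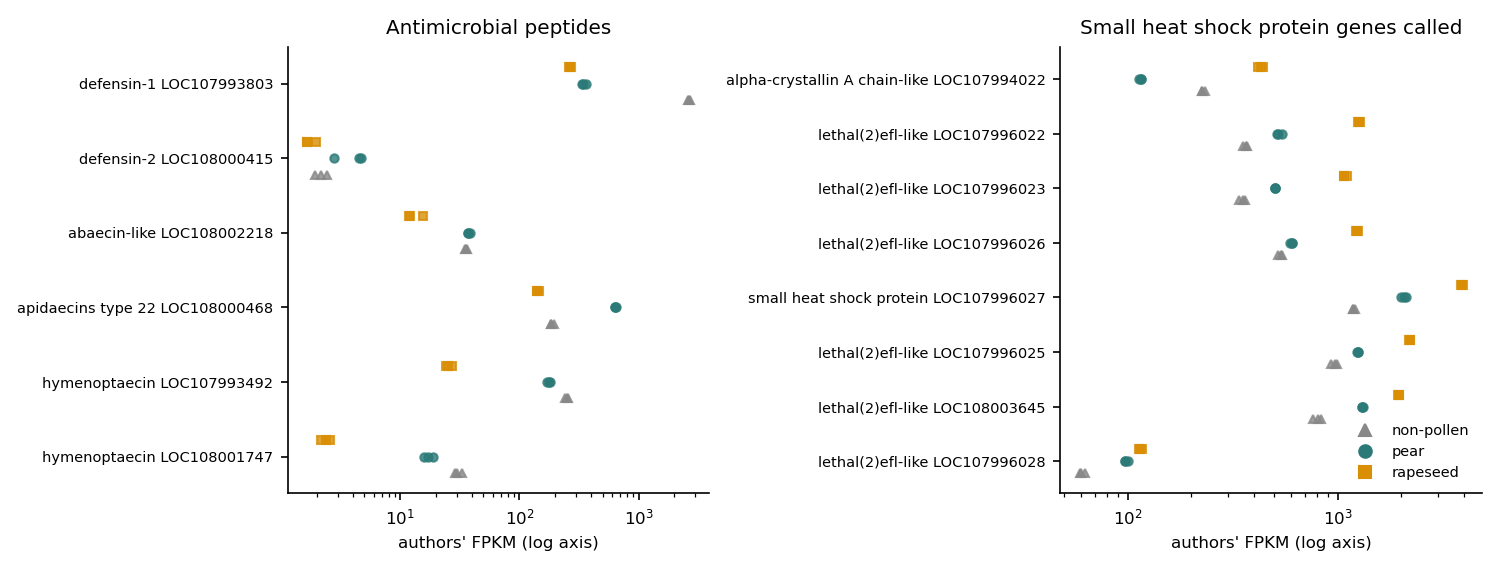
The authors' FPKM (log axis) in each library for the 6 antimicrobial peptide genes (left) and the 8 small heat shock protein genes called higher (right), with triangles for non-pollen, circles for pear and squares for rapeseed, 3 libraries each. The squares lie left of the circles in all 6 rows on the left and right of them in all 8 rows on the right.

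Royal jelly protein genes split into those that were much lower and those that were higher. Of 9 tested, 4 were lower and 4 were higher, 44.4% each, against 6.78% lower and 8.88% higher over all genes. The major royal jelly protein 2-like gene LOC107997173 had a CPM of 233, 322 and 360.01 in pear against 91.4, 75.5 and 77.0 in rapeseed, a log2 fold change of -1.91 (SE 0.094, edgeR adjusted p = 7.63e-14). LOC107997171 and LOC107994025, also 2-like, changed by -1.56 and -1.21, and LOC107997172, 5-like, by -1.40. In these 4 genes pear replicate 1 was the lowest and pear replicate 3 the highest pear library, and rapeseed replicate 1 was the highest rapeseed library. Against them, the 5-like gene LOC107997170 on the same scaffold had a CPM of 31.9, 35.3 and 33.9 in pear against 164, 171 and 172 in rapeseed, a log2 fold change of 2.32 (SE 0.046). Without rapeseed replicate 2 the number called higher was 2. Of the 9 genes, 7 lie on scaffold NW_016019131.1 between positions 495529 and 552949, and these close copies may share reads.

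The list took 0.627% ± 0.130 of the counts in pear and 0.280% ± 0.019 in rapeseed (SD, n = 3), against 32.2% to 32.5% in the non-pollen libraries. The non-pollen FPKM of LOC107997171 was 55480 ± 665, against 1018 ± 212 in pear and 338 ± 38.6 in rapeseed. The head gland marker list, which holds these genes, the alpha-glucosidases and an alpha-amylase, was higher in 6 (42.9%) and lower in 4 (28.6%) of 14. Over all genes 8.88% were higher and 6.78% lower. The summed CPM of the list was 6248 to 9248 in pear and 4945 to 5304 in rapeseed. Alpha-glucosidase (LOC107993622), the gland enzyme that splits sucrose, did not go with the lower royal jelly genes. The gene overlaps others on the other strand. Its CPM was 1115, 1235 and 1332 in pear against 1799, 1812 and 1802 in rapeseed, a log2 fold change of 0.56 (SE 0.039). Putative glucosylceramidase 4 (LOC108003239), which splits sugar from a membrane lipid, rose by 1.35 and was lowest in pear replicate 1, at a CPM of 22.4 against 30.9 and 35.0 in the other pear libraries. How far gland tissue on the mouthparts entered these values was not tested.

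Sugar-handling enzymes were more often higher than lower. Of 24 tested, 10 were higher (41.7%) and 2 were lower (8.33%), with a median of 0.05. The number lower was 1 when any library but pear replicate 1 was left out. Besides alpha-glucosidase and glucosylceramidase 4, glucose dehydrogenase LOC107994782 rose by 0.74, alpha-glucosidase isozyme II (LOC107995328) by 0.38 and trehalase-like (LOC108003141), which splits the blood sugar of insects, by 0.37. Glucosylceramidase-like (LOC108003248) changed by -0.43. Of 107 tested sugar and solute transporters 15 were higher (14.02%) and 6 were lower (5.61%), against the 8.88% and 6.78% of all genes, and on the FPKM scale 8 were higher. The facilitated trehalose transporter LOC107996289 had a CPM of 482, 476 and 496 in pear against 649, 637 and 647 in rapeseed, a log2 fold change of 0.41 (SE 0.029), and it lies within the Headcase gene on the same strand. Solute carrier family 41 member 1-like (LOC107992981), a magnesium carrier in mammals, rose by 0.52. Solute carrier family 23 member 2-like (LOC107997258), a vitamin C carrier in mammals, changed by -0.93, with a CPM of 22.2, 21.7 and 23.5 in pear against 11.6, 11.0 and 12.7 in rapeseed.

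Detoxification genes were more often called higher than lower. Of 29 tested cytochrome P450 genes 11 were higher (37.9%) and 2 were lower (6.90%), with a median of 0.13. Over all genes 8.88% were higher and 6.78% lower. The 6k1-like gene LOC108003715 had a CPM of 1129, 1184 and 1154 in pear against 1651, 1699 and 1687 in rapeseed, a log2 fold change of 0.54 (SE 0.027). P450 enzymes of this kind add oxygen to foreign compounds. Of the 9e2-like genes 4 rose, by 0.82 (LOC108004123), 0.42 (LOC108002715), 0.23 (LOC108004122) and 0.13 (LOC108004124). LOC108004124 overlaps a further P450 gene on the same strand, and LOC108004123 and LOC108002715 each overlap a gene on the other strand. Among 65 conjugating enzymes, esterases and efflux pumps 15 were higher (23.1%) and 7 were lower (10.8%). UDP-glucuronosyltransferases, which tag compounds for removal, rose in LOC107997717 (0.55), LOC107998322 (0.44), LOC107997718 (0.38), LOC108000060 (0.38) and LOC108001967 (0.19). LOC107997717, LOC107998322 and LOC107997718 each overlap a gene on the other strand. The esterase E4-like genes LOC108003111 and LOC108003932 fell by 0.95 and 0.88. LOC108003111 had a CPM of 397, 386 and 422 in pear against 209.7, 203 and 212 in rapeseed. The number lower in this list was 4 without pear replicate 2 and 4 without rapeseed replicate 2.

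Of 36 tested antioxidant and metal-binding genes 10 were higher (27.8%), 3 were lower (8.33%) and 23 were not called. Over all genes 8.88% were higher and 6.78% lower. On the FPKM scale 6 members of the list were higher. The list median of -0.02 lay next to the -0.01 of all genes. Catalase (LOC107993802), which splits hydrogen peroxide, rose by 0.31, peroxiredoxin-like LOC107995653 by 0.27, peroxiredoxin 1 (LOC107992656) by 0.23 and the copper-zinc superoxide dismutase LOC107996551 by 0.21. The manganese superoxide dismutase of mitochondria (LOC107999352) changed by -0.14.

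The list of odorant-binding and chemosensory proteins was called in both directions. It was also matched on takeout, sensory neuron membrane and NPC2 proteins, and the odorant-binding proteins named below were all lower. Of 10 tested members 5 were higher and 4 were lower, with a summed CPM over the list of 1450 to 1501 in pear and 1642 to 1693 in rapeseed. General odorant-binding protein 69a-like (LOC108002840), a carrier of scent molecules, had a CPM of 217, 239 and 171 in pear against 105, 117 and 109 in rapeseed, a log2 fold change of -0.92 (SE 0.071, edgeR adjusted p = 3.92e-10). The gene lies within one on the other strand, and its FPKM in the non-pollen libraries spread widely (142 ± 87.4). The odorant-binding proteins LOC108000551 and LOC108003003 changed by -0.60 and -0.54. Sensory neuron membrane protein LOC108001223 rose by 0.38. Takeout-like genes, carriers tied to feeding and the clock in flies, went both ways, with 0.40 in LOC108004396, 0.28 in LOC107993668 and -0.63 in LOC108004350, the last not called without pear replicate 2, without rapeseed replicate 3 or against a fold of 1.5.

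Of 123 odorant and gustatory receptors in the table only 19 passed the filter, and 1 was called in each direction (5.26%). Over all genes 8.88% were higher and 6.78% lower. These receptors lay at low levels, with a summed CPM over the list of 102 to 112 in pear and 106 to 113 in rapeseed, so calls among them cannot be set against those among the carriers. The odorant receptor coreceptor (LOC107994963), which all odorant receptors need to reach the membrane, had a CPM of 4.35, 6.82 and 4.10 in pear against 2.38, 3.32 and 2.30 in rapeseed. Its log2 fold change was -0.93 (SE 0.219, edgeR adjusted p = 0.00363), and the call was lost without pear replicate 2 and in the fit of all 9 libraries. The receptor 4-like gene LOC107996764 stood at 0.34 (adjusted p = 0.0434), a call lost under most alternatives.

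Hormone-related genes gave 7 higher (26.9%) and 2 lower (7.69%) of 26 tested, against 8.88% and 6.78% of all genes. Juvenile hormone epoxide hydrolase LOC108003695, which breaks the hormone down, had a CPM of 293, 289 and 291 in pear against 392, 393 and 388 in rapeseed, a log2 fold change of 0.42 (SE 0.030). Juvenile hormone esterase-like (LOC107997716), a further breakdown enzyme by its name, rose by 0.25 and overlaps a gene on the other strand. Juvenile hormone acid O-methyltransferase (LOC108002008), a late step of synthesis, stood at 1.11 (adjusted p = 0.00438 from edgeR) on few reads, with an FPKM of 0.946 in pear and 2.00 in rapeseed, and was named after its values were seen. HR38 (LOC108000193), a nuclear receptor that follows nerve activity in insects, changed by -0.83, and with LOC108004179 (-0.23) made up the 2 lower members among 8 immediate early genes. Of 9 genes in the circadian clock list 2 were higher and 2 were lower, 22.2% each. Cryptochrome-1 (LOC108003030), a light sensor of the clock in flies, was lower, at -0.23. The list also matched takeout-like genes such as LOC108004396, described above with the carriers, so its counts are not of clock genes alone. The number lower was 1 without pear replicate 2 or rapeseed replicate 3. Of 8 storage and lipid carrier genes apolipophorins (LOC107995298; 0.25), the lipid carrier of the blood, was higher, and vitellogenin and hexamerin-like (LOC107995056; -0.62), a storage protein, were lower. Of these 2 lower calls 1 was lost without pear replicate 2 or 3 or rapeseed replicate 2 or 3.

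Cuticle genes were higher in 7 and lower in 1 of 25 tested. The lower gene was cuticle protein 7-like (LOC107993682; -0.75), and the number lower was 0 without pear replicate 2 and 2 without pear replicate 1. Endochitinase A1-like (LOC107993595) had a CPM of 23.8, 20.8 and 23.6 in pear against 46.0, 39.02 and 43.4 in rapeseed, a log2 fold change of 0.91 (SE 0.079). Adult-specific cuticular protein LOC107992834 rose by 0.55 and cuticle protein-like LOC108002383 by 0.46. Loricrin (LOC108000177), so described after a skin protein of mammals, rose by 1.14 and overlaps genes on the other strand. The epidermis and cuticle marker list, which shares members with this one, had a summed CPM of 4900 to 5397 in pear and 5406 to 5470 in rapeseed.

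**Figure D4:**
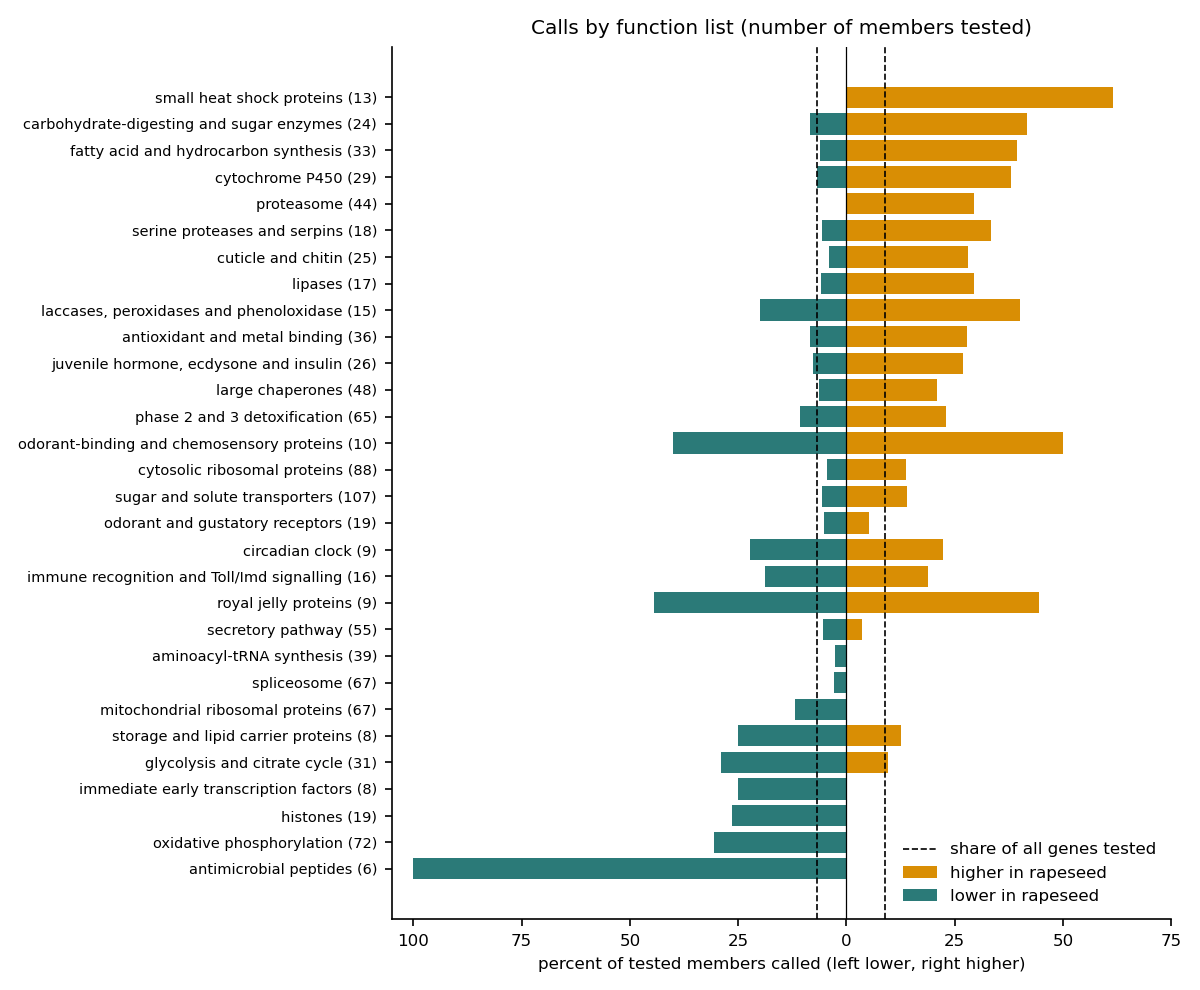
Share of the tested members of each function list that was called higher (right, orange) or lower (left, green) in rapeseed, with the number tested in brackets and dashed lines at the shares over all genes tested, 8.88% higher and 6.78% lower. Small heat shock proteins reach 61.5% on the right and antimicrobial peptides 100% on the left.

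Some genes of mitochondrial energy supply were lower in rapeseed by small amounts, and most were not called. In oxidative phosphorylation, the chain that makes ATP from oxygen, 22 of 72 tested members were lower (30.6%), none was higher and 50 were not called. The list median was -0.10, and over all genes 6.78% were lower and 8.88% higher. The succinate dehydrogenase iron-sulfur subunit (LOC107998211) had a CPM of 567, 550.5 and 542 in pear against 483, 485 and 491 in rapeseed, a log2 fold change of -0.19 (SE 0.029, edgeR adjusted p = 3.82e-05). The lower genes came from all parts of the chain. NADH dehydrogenase subunit LOC108003443 changed by -0.29, cytochrome b-c1 complex subunit 9 (LOC108003650) by -0.30, cytochrome c oxidase subunit 4 (LOC107993638) by -0.17 and the ATP synthase beta subunit (LOC108000974) by -0.10. The count of lower members was 13 without pear replicate 2, 12 without rapeseed replicate 1, 14 in the fit of all 9 libraries and 35 with library totals alone.

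The citrate cycle feeds that chain. In the list of glycolysis and citrate cycle genes 9 of 31 were lower (29.0%) and 3 were higher (9.68%), with a median of -0.06. Over all genes 6.78% were lower and 8.88% higher. Mitochondrial isocitrate dehydrogenase genes LOC108001696, LOC108004249 and LOC107993975 changed by -0.17, -0.16 and -0.12, malate dehydrogenase (LOC107994286) by -0.15 and fumarate hydratase (LOC107999533) by -0.12. The first enzyme of glycolysis did not go the same way. Hexokinase-1-like (LOC107999784), which starts glycolysis, had a CPM of 345, 346 and 365 in pear against 471, 479 and 476 in rapeseed, a log2 fold change of 0.43 (SE 0.031). Glycolysis was not of one sign, since phosphofructokinase (LOC108003046; -0.13), phosphoglycerate mutase (LOC108000761; -0.12) and phosphoglycerate kinase (LOC107993693; -0.10) were lower. The L-lactate dehydrogenase-like genes LOC107999802 and LOC108001542, outside the list and chosen after their values were seen, rose by 0.57 and 0.51. The count of lower members was 5 without rapeseed replicate 2 or 3 and in the fit of all 9 libraries, and 14 with library totals alone. Mitochondrial ribosomal proteins were lower in 8 of 67 (11.9%) and higher in none, against 6.78% lower over all genes. The number lower was 4 without pear replicate 1 and 5 without rapeseed replicate 2.

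Muscle markers were also lower more often than higher, in 15 (39.5%) against 4 (10.5%) of 38. Over all genes the shares were 6.78% lower and 8.88% higher. The myosin heavy chain gene LOC107995435 changed by -0.22, troponin C LOC107995871 by -0.27 and the myosin gene LOC107999930 by -0.11. Titin (LOC107993146) rose by 0.14, the gene Myosin light chain kinase, smooth muscle (LOC107993144) by 0.13 and twitchin (LOC107992456) by 0.11. The list was matched on names and also holds a myosin heavy chain described as non-muscle (LOC107999997). The summed CPM of the list, 107403 to 114372 in pear and 109097 to 109656 in rapeseed, overlapped between the groups. Its share of the counts before TMM scaling did not, at 11.05% to 11.39% in pear and 10.78% to 10.82% in rapeseed. The part of muscle in the mitochondrial result was not tested.

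Of 44 tested proteasome subunits, the machine that degrades tagged proteins, 13 were higher (29.5%) and none was lower. Over all genes 8.88% were higher and 6.78% lower, and the list median was 0.06. Proteasome subunit alpha type-2 (LOC107998425) had a CPM of 68.1, 69.9 and 68.5 in pear against 78.7, 81.1 and 78.4 in rapeseed, a log2 fold change of 0.21 (SE 0.045, edgeR adjusted p = 0.00172). The number higher was 7 or 8 without pear replicate 2, rapeseed replicate 1 or rapeseed replicate 2, 7 with library totals alone and 6 on the FPKM scale, where 1 was lower.

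Cytosolic ribosomal proteins were higher in 12 (13.6%) and lower in 4 (4.55%) of 88, against the 8.88% and 6.78% of all genes, with a median of 0.01 that was -0.03 with library totals alone. The 12 became 7 without rapeseed replicate 2 and on the FPKM scale, and the 4 became 0 without pear replicate 2 or 3, 1 without rapeseed replicate 1 and 2 without rapeseed replicate 3. Histone list genes were lower in 5 (26.3%) and higher in none of 19, led by histone H1A (LOC108003496) at -0.70 and Histone H2B.3 (LOC108003495) at -0.46. Among the 5 is a histone chaperone (LOC107998816; -0.17). The number lower was 2 without pear replicate 2 or rapeseed replicate 1, 3 without rapeseed replicate 2 or 3, and 8 on the FPKM scale. Spliceosome, aminoacyl-tRNA and secretory genes were called in 2 of 67, 1 of 39 and 5 of 55 cases, shares below the 15.7% of all genes, and these counts moved by up to 2 genes in a direction when 1 library was left out.

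**Figure D5:**
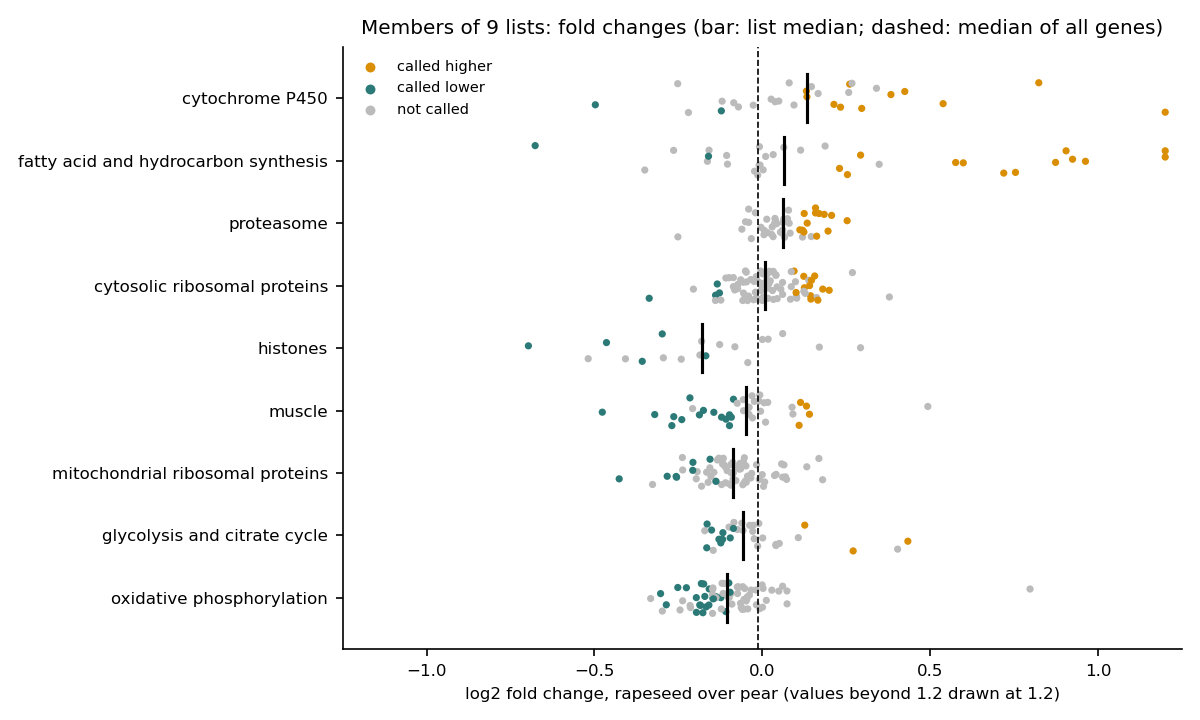
Log2 fold change of rapeseed over pear for each tested member of 9 lists, with orange and green points for members called higher and lower, grey for the rest, a bar at the list median and a dashed line at the median of all genes (-0.01); values beyond 1.2 are drawn at 1.2. The median of oxidative phosphorylation lies left of the dashed line at -0.10, that of the proteasome subunits lies right of it at 0.06, and most fatty acid and P450 calls lie on the right.

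The terms of the deposited GO and KEGG columns overlapped the lists above. Those with 15 to 300 tested members, 548 of GO and 101 of KEGG, were ranked by the share of members called, and the 6 highest in each direction are described here with no test. Over all genes 8.88% were higher and 6.78% lower. The ranking took the terms furthest above these shares, so a high share in them was fixed by the choice. Protein refolding had 12 of 15 members higher and 1 lower, chaperone-mediated protein folding 14 of 32 higher and 1 lower, and Z disc 17 of 39 higher and 5 lower. The same 8 small heat shock genes were among the higher members of each. In Z disc, a part of muscle, they were 8 of the 17. Threonine-type endopeptidase activity had 9 of 15 higher, all of them proteasome subunits, and none lower. The term transport had 15 of 41 higher and 2 lower, and 4 of the higher ones were alpha-tocopherol transfer proteins, lipid carriers, which rose by 0.45 (LOC107995069), 0.60 (LOC107995071), 0.66 (LOC107995068) and 0.77 (LOC107994999). LOC107995071 lies within LOC107995069 on the other strand.

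Defense response to Gram-positive bacterium had 7 of 17 higher (41.2%) and 5 lower (29.4%), against 8.88% and 6.78% of all genes. The 5 lower were 4 royal jelly genes and a peptidoglycan recognition gene (LOC108004045), and 3 of the higher ones were royal jelly genes too. None of the antimicrobial peptides was among its called members.

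Over all genes 8.88% were higher and 6.78% lower. In KEGG, ascorbate and aldarate metabolism had 10 of 18 higher, retinol metabolism 11 of 23 and drug metabolism by cytochrome P450 9 of 24, with 1, 1 and 2 lower. Each of these held the 5 UDP-glucuronosyltransferases named above, and none of their members called higher was a P450 gene of the list. Retinol metabolism also held retinol dehydrogenase 14 (LOC107998422; 0.63) and an estradiol 17-beta-dehydrogenase 11-like gene (LOC107995023; 0.82) that overlaps a further gene of that name on the same strand. Pentose and glucuronate interconversions had 10 of 28 higher and 3 lower. Insect hormone biosynthesis had 7 of 15 and glycosaminoglycan degradation 6 of 16 higher, each with 1 lower, the last with its largest rise in hyaluronidase (LOC107998690; 1.05).

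Among the terms ranked by lower members, the GO term tricarboxylic acid cycle had 13 of 26 lower (50.0%) and none higher. Over all genes 6.78% were lower and 8.88% higher. The KEGG citrate cycle had 15 of 37 lower and 3 higher, and KEGG oxidative phosphorylation 23 of 88 lower and 3 higher. KEGG glycolysis had 11 of 51 lower but 13 higher, and pyruvate metabolism 8 of 37 lower and 10 higher, so both went in either direction. Other names did not describe their members. Phototransduction in the fly had 8 of 31 lower and 3 higher, the lower ones with actin (LOC108003298; -0.19), troponin C (LOC107995063; -0.24) and calmodulin-dependent kinase (LOC108003363; -0.37), and of the photoreceptor markers none was called. Insulin signaling had 4 of 17 lower and 2 higher, and 2 of the lower ones were troponin C genes. The GO terms structural constituent of muscle and myofibril assembly each had 5 of 15 lower, with 4 higher in the former and 2 in the latter. Motor activity had 6 of 19 lower and 1 higher, coupled ATPase activity 8 of 22 lower and 5 higher, and polytene chromosome puff 9 of 24 lower and 3 higher. The median of coupled ATPase activity was 0.00. All of these terms shared the same 3 muscle myosin genes, LOC107995435, LOC107999930 and LOC107997935.

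The remaining genes with a large fall were of mixed function. Niemann-Pick C1 protein-like (LOC107997528), a sterol carrier of cell membranes, had a CPM of 29.0, 28.2 and 31.0 in pear against 7.79, 9.48 and 8.80 in rapeseed, a log2 fold change of -1.76 (SE 0.093). The gene described as Signal recognition particle (LOC114577893) stood at -2.40, with a CPM of 6.07, 5.51 and 5.54 in pear against 1.93, 0.581 and 0.695 in rapeseed, and lies within a dopamine receptor gene on the same strand.

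Among the 15 leading genes that were higher in rapeseed, the non-pollen FPKM lay between the pear and rapeseed means in 6, below both in 6 and above both in 3. Among the 15 that were lower it lay between in 6, above both in 6 and below both in 3.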

How the data were processed

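Poly(A) RNA libraries of the proboscis were prepared with a strand-marking kit and read in pairs. One deposited table gave, for each gene and library, the authors' whole-number count and FPKM, beside descriptions, GO and KEGG terms. Tools listed in the submitters' processing notes, without their role, were cutadapt (1.9), StringTie (2.1.6), HISAT2 (2.2.1), edgeR and DESeq2. Genome build, use of strand and treatment of reads that match several genes: not given in the sources used here. Positions are those of the table, and 8137 of the tested gene IDs were found in a RefSeq table of AcerK_1.0, used for names only.

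Counts of the 6 libraries were fitted with edgeR 4.0.16 in R 4.3.3 (quasi-likelihood test, group as the only term, TMM factors 0.985 to 1.029) after keeping genes that reached an FPKM of 1 in 3 or more libraries. The biological coefficient of variation was 7.13%. p-values were adjusted by the Benjamini-Hochberg method over all 9083 genes, with a threshold of 0.05. Replicates differed by more than sampling noise (chi-square per degree of freedom 6.03 to 14.22 over genes with at least 20 counts). On simulated counts for this comparison with 200 of 9083 genes changed, the fit recovered 55% at a fold of 1.25, 79% at 1.5 and 98% at 2, with 9 to 12 false calls. These counts were drawn from the fitted model, with fewer genes changed than the 1423 called in the data, so the rates need not hold there.

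Function and marker lists were matched on descriptions. The members and lists were chosen with earlier results of these data known. By rule the text named 15 called genes per direction, those of largest change that did not overlap between groups, reached a mean FPKM of 5 in a group and were not described as uncharacterized. It also named up to 4 called members per list and 3 per ranked term, by smallest adjusted p. Further members were named after their values were seen. Of the 144 genes that the rules gave, 49 overlap another gene, and not every overlap is stated beside its gene. Alternatives were DESeq2 1.42.0, upper quartile scaling, library totals, limma 3.58.1 on log2(FPKM + 0.1) and log2(FPKM + 1), no filter, a filter at an FPKM of 5, a test against a fold of 1.5, a fit of all 9 libraries, a replicate block, and each library left out. The non-pollen libraries entered only the fit of all 9.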

Additional observations from a re-analysis of the deposited data

How the results depend on the processing

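Against the 1423 calls (807 higher, 616 lower), leaving out 1 library at a time gave 1065 to 1546 calls, 633 to 988 higher and 422 to 565 lower. A test against a fold of 1.5 left 61 genes, 36 higher and 25 lower, since it asks for a larger change. Library totals alone gave 1010 lower genes and 621 higher. On FPKM, limma gave 496 higher genes with a pseudocount of 0.1 and 495 with 1. DESeq2 gave 1575 calls, upper quartile scaling 1394, no filter 1326, a filter at an FPKM of 5 gave 1347 and the fit of all 9 libraries 1183. With the replicate number as a block 1346 genes were called, 772 of them higher. The numbers did not pair the libraries, with correlations of the deviations of same-numbered libraries of -0.114, 0.022 and -0.002. Of 2296 values of named genes under alternatives, 2124 kept their side of the threshold, 172 lost it and none changed direction. Of 960 counts in function lists, 184 moved by over 1.5 times.

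In the simulated counts, at this depth and with 3 libraries a group, small changes were found in part only. Genes with few reads, such as most odorant receptors, were not tested. The cause of the shifts with the scaling was not tested.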
